A study of Phoxinus septimaniae with 18 samples.

Results

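The transcriptomes of brain and liver were compared within the same fish, using every brain and liver library of the study, 12 of 18 libraries in all. The fish were wild invasive minnows, hybrids of Phoxinus septimaniae and P. dragarum, caught in the Llobregat River at a salt station of 18.1 ppt beside a potash mine or at an upstream reference station with lower salinity. Each station gave 3 fish, and each of the 6 fish gave 1 brain and 1 liver library, so the groups were brains of 3 salt fish, brains of 3 reference fish, livers of the same 3 salt fish and livers of the same 3 reference fish. Brain and liver were joined by the fish code at the start of each library code, and transcripts were joined by identifier. Age and sex of the fish are not given in the labels, and station and salinity cannot be told apart.

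The brain is built of neurons and glia, and its cells are known for a large and varied set of transcripts, many of them for membrane proteins such as ion channels, transporters and receptors for neurotransmitters. The liver is built mainly of hepatocytes, which make most proteins of the blood plasma and much of the enzyme machinery of metabolism. In egg-laying vertebrates the liver of females also makes the precursors of egg yolk.

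Counts were given per assembled transcript, with totals of 23678725 to 28731252 per brain library and 22183499 to 39881549 per liver library. Each tissue's table held only transcripts that reached 1 CPM (counts per 1000000 counts of the library) in at least 2 of its 6 libraries, so a transcript absent from a table was below that filter and had no measured value there. Transcripts were grouped into assembled genes and, where the identifier carried one, under their first protein hit, an accession from another species. The identifiers paired these accessions with gene names only for 1 mitochondrial entry, COX1, and tissue marker genes could not be looked up: of 72 marker symbols searched, 1 was found, the same COX1. The fish called reference 2 stood apart in both tissues. In its brain 6 transcripts above 1000 CPM were at least 50-fold above every other brain and held 6.55% of the counts, and 2 of these 6 stood equally far above the other livers in its liver. No other fish had such a transcript in its brain, while the liver of reference fish 3 also had 2 such transcripts, as many as the liver of reference fish 2, and these did not stand apart in its brain.

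The brain table listed many more features than the liver table, and most liver features were also present in brain. It held 62498 transcripts, 27606 assembled genes and 14386 protein hits, against 31568 transcripts, 14896 genes and 10693 hits in liver. The 2 tables shared 24849 transcripts, which were 39.8% of those in brain and 78.7% of those in liver. They shared 12419 assembled genes, 45.0% of those in brain and 83.4% of those in liver, and 9676 protein hits, 67.3% of those in brain and 90.5% of those in liver.

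Genes listed in 1 tissue only were numerous in brain, and in liver their share of counts varied widely between fish. The 15187 genes listed in brain alone took 27.1 ± 0.932% of the brain counts (SD, n = 6 libraries, range 25.8 to 28.1%). The 2477 genes listed in liver alone took 48.3 ± 24.7% of the liver counts (SD, n = 6). These shares ran from 15.5 to 72.04%, so the lowest liver lay below every brain. The livers did not form 1 even spread. Transcripts present in both tables took 73.9 and 78.2% of counts in reference livers 2 and 3, but 26.1 to 41.4% in the other livers. Of the genes listed in brain alone, 447 averaged above 100 CPM and 1937 were above 10 CPM in all 6 brains, against 135 and 201 such genes listed in liver alone. Few of the genes listed in brain alone carried a protein hit, 29.6%, against 50.1% of those listed in liver alone and 72.9% of genes in both tables. The filter of 1 CPM was a lower bar in brain than in liver. The levels of 10 and 100 CPM above were also taken on the table total, so they too were lower bars in brain. On the scale of TMM factors (library scaling factors of edgeR that rest on the bulk of the genes), 1 CPM of the table total stood for 0.899 to 1.03 CPM in brain libraries and 1.75 to 4.60 CPM in liver libraries. With the brain filter raised to 3.28 CPM on that scale, the mean of the liver libraries, 36066 transcripts, 16000 genes and 11239 hits were left in brain. Raised to 2.24 CPM, the second lowest liver library, it left 43219 transcripts, 18862 genes and 12241 hits. Both settings were chosen after the data were seen.

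Liver counts were concentrated in few genes and brain counts were spread over many. In the brains of salt fish 1, 2 and 3, it took 1095, 1002 and 1038 genes to reach 50% of the counts, and in the brains of reference fish 1, 2 and 3 it took 1042, 851 and 1073. In livers of the same salt fish 3, 2 and 7 genes were enough, and in livers of the same reference fish 9, 37 and 45. The tissues did not overlap, and the livers differed among themselves far more than the brains did.

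The 10 most abundant genes of a library took 8.88 ± 2.31% of counts in brain and 50.8 ± 14.5% in liver (SD, n = 6 each; exact paired sign-flip test, two-sided, p = 0.03125). Their share was lower in brain in 6 of 6 fish, and this p is the smallest that 6 pairs can give; adjusted over the 13 shares tested it was also 0.03125. By library, they took 7.84, 8.82 and 8.31% in salt brains and 8.14, 13.4 and 6.77% in reference brains, against 64.2, 66.8 and 54.5% in salt livers and 52.3, 34.1 and 33.1% in reference livers. Reference brain 2, the library of the fish that stood apart, was the highest brain. The 100 most abundant genes took 20.9 ± 2.46% in brain and 71.8 ± 9.76% in liver, with the same exact p of 0.03125.

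**Figure D1:**
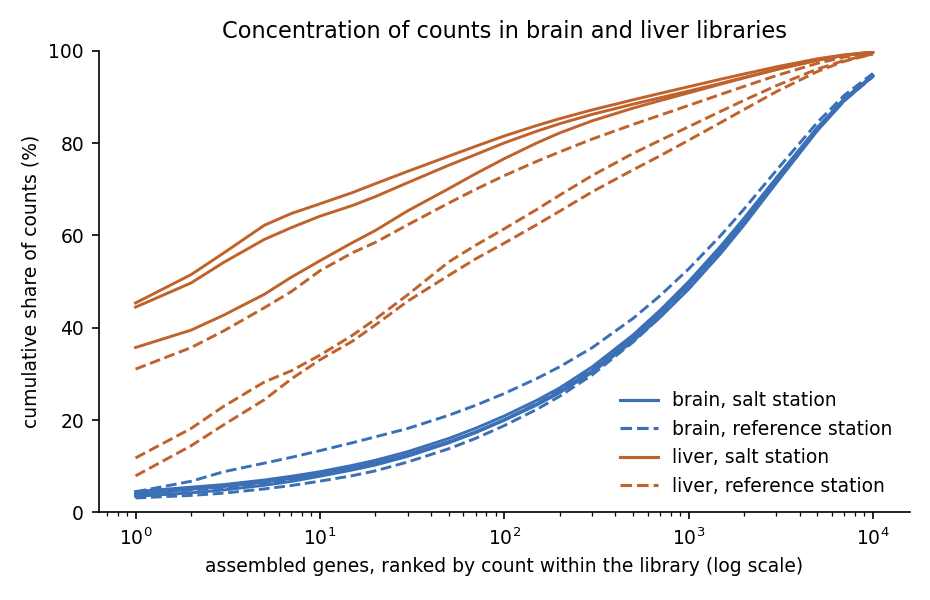
Cumulative share of counts (%) against the rank of assembled genes by count within each library (log axis), with 6 brain lines in blue and 6 liver lines in orange, solid for the salt and dashed for the reference station. Every liver line starts above every brain line, and the brain lines pass 50% only at 851 to 1095 genes.

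The genes at the top were different ones. Of the 10 most abundant genes of each tissue by mean level, 0 were shared, and of the 100 most abundant, 11 were. The most abundant brain gene, TRINITY_DN6508_c0_g1, had 3 transcripts with 3 different first hits. It took 3.50, 4.53 and 3.91% of counts in salt brains and 4.12, 4.47 and 3.13% in reference brains, and none of its transcripts was in the liver table. The most abundant hit in liver, DANRE_ENSDARP00000050237, was spread over 20 transcripts, and none of them was in the brain table. It took 40.9, 42.6 and 33.2% of counts in salt livers and 28.9% in reference liver 1, but only 50 and 51 counts in reference livers 2 and 3. Both features were singled out after their values were seen. The liver libraries thus fell into 4 with this hit as the leading feature and 2 nearly without it. All 3 salt livers were among the 4, and the 2 were both reference livers. Whether the split depends on station was not tested. Without this hit the 10 most abundant genes still took 36.7 ± 4.74% of the liver counts (n = 6), against 8.88 ± 2.31% in brain (exact adjusted p = 0.0339).

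Among genes with a transcript in both tables, most differed between brain and liver. Counts were summed over all transcripts of a gene, with a transcript absent from 1 table at 0. Of 12335 assembled genes tested with edgeR's quasi-likelihood test and fish as a block, 4114 were higher in brain (33.4%) and 3700 were higher in liver (30%) at a Benjamini-Hochberg adjusted p under 0.05. Together these 7814 genes made up 63.3% of those tested, and 4521 did not pass. Against a 2-fold difference, 2174 genes were higher in brain (17.6%) and 2188 in liver (17.7%). Whatever their call, 4053 genes were higher in brain in all 6 fish (32.9% of those tested) and 3359 were higher in liver in all 6 (27.2%). Differences beyond 16-fold were estimated for 491 genes in the direction of brain and 461 in that of liver. The median size of the log2 difference was 1.15 over all genes tested, and for 2604 genes (21.1%) the 95% interval of the difference lay within 2-fold in either direction. When only transcripts present in both tables were summed, 3696 of 12037 genes were higher in brain and 3492 in liver. Beyond 2-fold these were 1789 and 1863 genes.

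Protein hits gave nearly the same picture. Of 9627 hits tested, 6211 (64.5%) passed, with 3253 higher in brain (33.8%) and 2958 higher in liver (30.7%). Beyond 2-fold there were 1733 higher in brain (18%) and 1756 higher in liver (18.2%), and, whatever their call, 3223 hits were higher in brain in all 6 fish (33.5%) and 2728 higher in liver in all 6 (28.3%). The near balance of the 2 directions rests on scaling factors: TMM factors for genes were 1.35 to 1.5 in brain and 0.557 to 0.823 in liver. With the totals of the counts in the fit and no scaling factor, 7391 genes were called higher in brain and 1708 in liver, so that the share of calls higher in brain was 81.2%, against 52.6% with TMM. That scaling moved the median log2 difference over all genes from 0.11 to 1.20, and for hits it gave 5928 and 1328 calls, 81.7% of them higher in brain against 52.4% with TMM. Values below are on the TMM scale unless another is named, and they compare tables that the authors filtered separately. In bulk tissue, more cells of a type and more RNA per cell cannot be told apart.

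**Figure D2:**
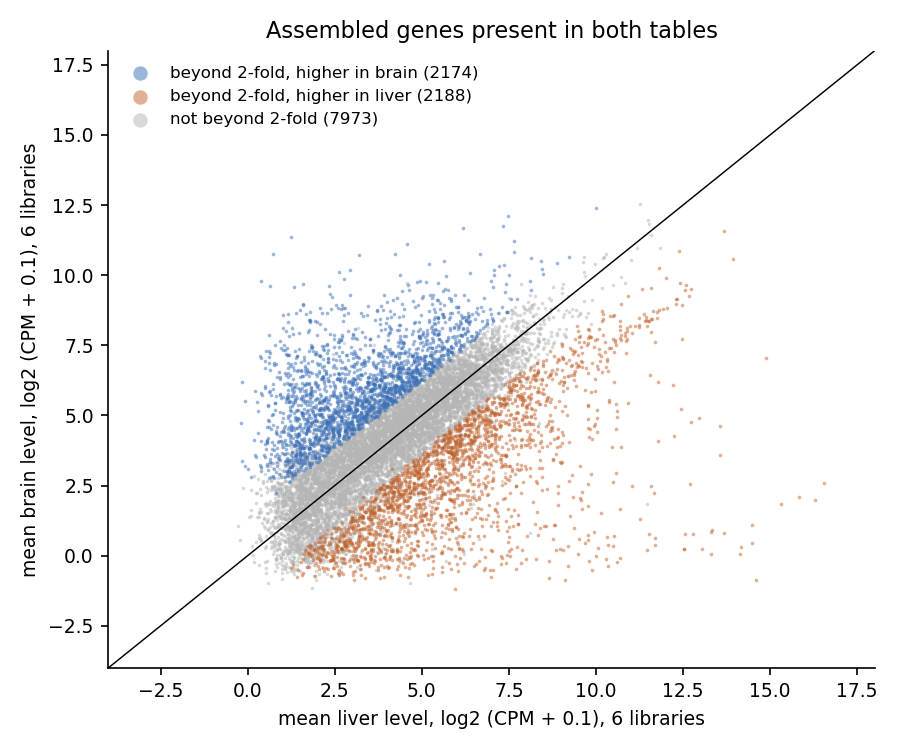
Mean level of each assembled gene in 6 brain libraries (vertical) and 6 liver libraries (horizontal), both as log2 of TMM-scaled CPM plus 0.1, with the line of equality. Genes beyond 2-fold are blue where higher in brain (2174) and orange where higher in liver (2188), and a band of genes at the lower right had very high liver and very low brain levels.

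The most abundant hits in each direction showed unlike patterns. The rule for naming them took the 2 most abundant in the tissue where they were higher. Only hits with an edgeR adjusted p under 0.05 and the same direction in every fish could be named. For the named hits, a passing adjusted p and a direction shared by all fish were thus fixed by the rule and are not separate findings. FUGRU_jgi_Takru4_751852_estExt_fgenesh5_pg.C_90097, the most abundant hit called higher in brain, had 6386, 6533 and 6878 CPM in brains of salt fish, and 6234, 7170 and 6196 CPM in brains of reference fish. Its level was 1500, 1736 and 2079 CPM in salt livers and 2894, 1818 and 1929 CPM in reference livers. Brain and liver did not overlap, and the log2 difference was 1.75 (SE 0.22; edgeR adjusted p = 0.000385). This hit was thus also abundant in liver.

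The second, DANRE_ENSDARP00000120451, reached 4437, 2694 and 3363 CPM in brains of salt fish, and 7489, 6847 and 5712 CPM in brains of reference fish. In liver it had 105.6, 119.6 and 116.6 CPM in salt fish and 184.6, 398.8 and 225.6 CPM in reference fish. It was higher in brain in 6 of 6 fish by a log2 difference of 4.81 (SE 0.28; edgeR adjusted p = 1.4989e-05). In both tissues its 3 salt libraries lay below its 3 reference libraries, and the station term of its brain-liver difference did not pass (edgeR adjusted p = 0.945).

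Among hits in both tables, the 2 most abundant called higher in liver had low counts in every brain. DANRE_ENSDARP00000050237, the most abundant hit in liver, was absent from the brain table and was not tested. DANRE_ENSDARP00000112199 had 18, 549 and 14 counts in salt brains and 238, 14 and 106 counts in reference brains, and 404093, 340412 and 621049 counts in salt livers and 97257, 4219458 and 2154207 in reference livers. Its log2 difference was -14.92 (SE 1.90; edgeR adjusted p = 0.00038132), lower in brain in 6 of 6 fish. DANRE_ENSDARP00000124424 had 2, 416 and 6 counts in salt brains and 97, 7 and 62 in reference brains. The same hit had 552533, 104127 and 576921 counts in salt livers and 1325934, 725530 and 2539305 in reference livers, and its log2 difference was -16.27 (SE 1.80; edgeR adjusted p = 0.00019216). Only 2 of 4 transcripts of DANRE_ENSDARP00000112199 and 1 of 3 of DANRE_ENSDARP00000124424 were in both tables. The others counted as 0 in the tissue where they were absent. On transcripts present in both tables alone, the log2 differences were -14.62 and -16.09.

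Salt brain 2 was the highest brain for both of these hits, although the liver of the same fish was not among the 3 highest livers for either. Per 100000 counts in the liver of the same fish, the brain of salt fish 2 had 161 counts of DANRE_ENSDARP00000112199 and 400 of DANRE_ENSDARP00000124424, while the brain of reference fish 1 had 245 and 7.32. Over 38 hits above 1000 CPM in liver with a log2 difference below -8, a set chosen after the values were seen, the brains held 0.00596 to 0.0222% of their counts, highest in salt brain 2, and the livers held 7.79 to 38.3%. Whether these brain counts came from liver RNA was not tested.

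Most genes called between brain and liver in reference fish were also called, in the same direction, in salt fish. Fitted on the 3 salt fish alone, 6331 of 12335 genes were called. On the 3 reference fish alone, 4678 of 12335 were called, with no library in common. These fits kept the genes and scaling factors of the fit on 6 fish. In both fits 4063 genes were called, which is 64.2% of the salt calls and 86.9% of the reference calls. The 86.9% is to be read beside the 6331 of all 12335 genes called in salt fish. Likewise the 64.2% is to be read beside the 4678 of 12335 called in reference fish. Of the 4063 genes, 4062 had the same direction, and over all 12335 genes, called or not, 87.4% did. The log2 differences at the 2 stations had a Pearson r of 0.88 and a Spearman rho of 0.89 across 12335 genes, which are not independent replicates. Of 9627 protein hits, 5135 were called in the fit on salt fish and 3760 in that on reference fish. At both stations 3324 were called, 64.7% of the salt calls and 88.4% of the reference calls. All 3324 had the same direction, and over all 9627 hits 87.9% did.

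No gene and no hit passed the test of the station by tissue term, which asks whether brain minus liver differs between salt and reference fish (edgeR, 0 of 12335 genes and 0 of 9627 hits at an adjusted p under 0.05). The smallest adjusted p was 0.434 for genes and 0.575 for hits. At an unadjusted p under 0.05 there were 858 genes (6.96%) and 668 hits (6.94%). DESeq2 called 147 genes, 78 of them with a higher and 69 with a lower brain minus liver difference in salt fish, and 127 hits, 72 higher and 55 lower, while limma-voom called 0 genes and 0 hits with 1106 and 856 at an unadjusted p under 0.05. With 3 fish a station, a p that misses the threshold does not show that the stations act alike.

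Transcripts without a protein hit and transcripts for proteins with membrane-spanning segments took larger shares of brain counts than of liver counts. Calls by gene at an adjusted p under 0.05, given below for genes in both tables, mostly went the other way for the classes with segments. The identifiers give the number of predicted transmembrane segments, where 7 is the number found in G protein-coupled receptors, the family that includes many receptors for neurotransmitters. In brain, transcripts with a hit and 7 segments took 0.690 ± 0.0182% of counts, against 0.135 ± 0.0502% in liver (SD, n = 6 each). The brains lay between 0.671 and 0.723% and the livers between 0.0880 and 0.214%, so they did not overlap, and the ratio of the means was 5.13. This was the largest ratio among the segment classes.

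Shares were higher in brain in 6 of 6 fish for each of the 7 classes with 1 or more segments and for transcripts without a hit (exact paired sign-flip test, p = 0.03125 for each, the smallest possible, adjusted p = 0.03125). Transcripts with no hit took 17.5 ± 0.439% in brain and 3.80 ± 1.54% in liver. Those with 1 segment took 6.75 ± 0.190% in brain and 3.56 ± 1.76% in liver, and those with 4 segments 1.26 ± 0.0954% in brain and 0.375 ± 0.119% in liver. The balance lay with transcripts that had a hit and 0 segments, which took 67.5 ± 0.758% in brain and 89.8 ± 4.23% in liver, lower in brain in 6 of 6 fish (exact p = 0.03125).

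These shares add up to the whole of a library, so a few abundant liver transcripts lower every other share in liver. Leaving out the most abundant liver hit brought the ratio for 7 segments to 3.97 and left 12 or more segments without a call, at 0.572% in brain and 0.398% in liver (exact adjusted p = 0.0625). On transcripts present in both tables alone, the difference turned round for 1 segment, to -0.657 percentage points (exact adjusted p = 0.375), and for 12 or more, to -0.112 points (exact adjusted p = 0.338). In the same setting the other differences kept their direction, and most were smaller: -21.6 points against -41.95 for the 10 most abundant genes, -32.9 against -50.9 for the 100 most abundant, 6.599 against 13.7 for no hit and -8.20 against -22.3 for 0 segments. By number of segments they were 0.744 against 2.32 points (2 to 3), 0.573 against 0.884 (4), 0.281 against 0.732 (5 to 6), 0.438 against 0.556 (7) and 0.337 against 0.604 (8 to 11), while the signal peptide tag gave -8.54 against -14.1 and mitochondrial entries 0.997 against 0.664. The tag for a signal peptide stood on 89.01% of brain and 90.03% of liver transcripts with a hit, and on every transcript with a segment (7065 of 7065 in brain, 4185 of 4185 in liver), so it does not separate secreted proteins from others. Its share of counts was 77.5 ± 1.87% in brain and 91.6 ± 2.06% in liver (exact p = 0.03125).

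**Figure D3:**
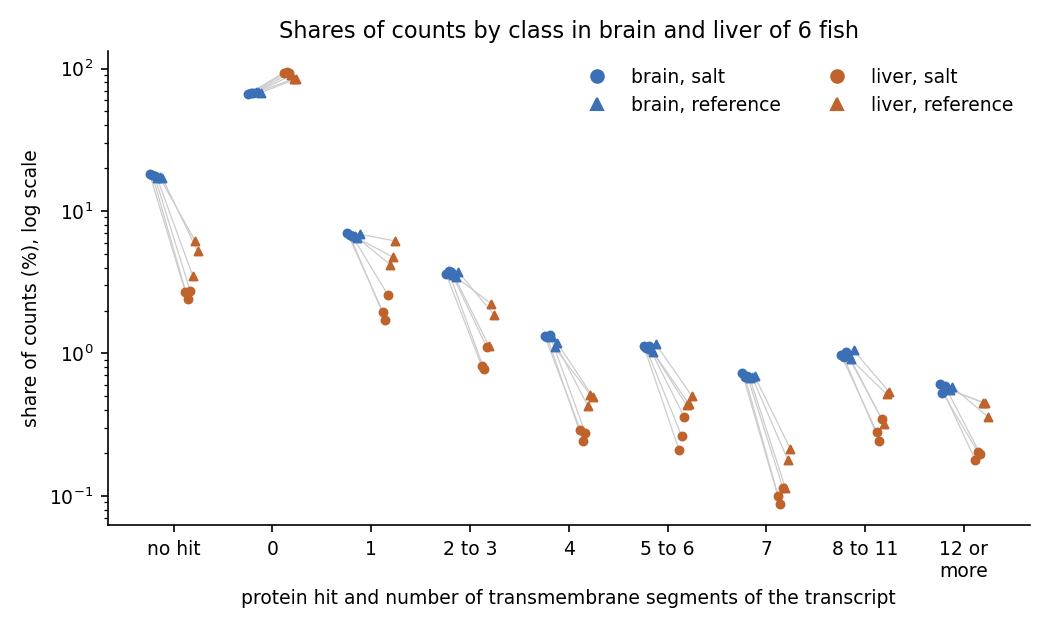
Share of counts (%, log axis) of transcripts without a hit and of transcripts with a hit by number of transmembrane segments, with brain (blue) left of liver (orange), circles for salt and triangles for reference fish, and a line joining the tissues of each fish. Every line falls from brain to liver except in the class with 0 segments, and the drop is steepest for no hit and for 7 segments.

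Counted by gene instead of by reads, 252 genes had a transcript with 7 segments and none with more. Of these, 137 (54.4%) were listed in brain alone and 14 in liver alone, against 50.5% and 8.23% of all 30083 genes. All genes include 15295 with no hit, of which 69.9% were listed in brain alone. The other classes with a hit had smaller shares than the class with 7 segments. These ran from 21.7% (8 to 11 segments) to 37.0% (5 to 6 segments), with 29.6% for 0 segments. The 101 genes with 7 segments that were tested in both tissues are those that passed both filters, and the 137 listed in brain alone have no measured liver value, so the tested members give no direction for the class. Their median log2 difference was -0.53 relative to that of all genes, -0.20 in salt fish alone and -0.22 without reference fish 3, and from fish to fish it ran from -0.36 to -0.19 on log2 levels of single fish (prior count 2). With genes of either table included, the class median was above that of all genes, by 0.41 with absent transcripts at 1 CPM and by 5.02 with absent transcripts at 0. Both values rest on the level filled in for absent transcripts, so they give no direction for the class either. For genes with 1 segment the median relative to all genes was -0.30, and it turned to 0.51 with absent transcripts at 1 CPM. In the main fit the other medians were -0.23 (2 to 3 segments), -0.04 (4), -0.40 (5 to 6), -0.20 (8 to 11) and -0.23 (12 or more). At an adjusted p under 0.05, more tested genes were called higher in liver than in brain in every class with segments except 4. With 1 segment 30.3% were higher in brain and 39.5% in liver, with 7 segments 31.7 and 38.6%, and with 4 segments 39.1 and 33.8%. Over all tested genes these shares were 33.4 and 30%. Beyond 2-fold, 7 segments had 21 genes higher in brain and 19 in liver, and 5 to 6 segments had 31 and 31. The other classes with segments kept their direction. These calls cover only genes that passed both filters, so they give no direction for a whole class.

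Within genes, the 2 tissues also used different transcripts. Of 5632 genes with 2 or more shared transcripts, 146 (2.59%) passed the test of transcript usage, which compares each transcript's log2 difference with that of its gene (edgeR, Simes p per gene, adjusted under 0.05). The count depends on the filter and the block: with at least 10 counts in all 12 libraries 404 of 1826 genes passed, 93 of them among the 146, and without fish as a block 20 passed. In 97 of the 146 (66.4%) the most abundant transcript in brain was another one than in liver, against 1174 of the 5486 genes not called (21.4%). The calls and the leading transcripts come from the same counts, so a larger share among called genes was built in. The leading transcripts of brain and liver had the same first hit in 51 of these 97 genes, different first hits in 39, and no hit on at least 1 side in 7. An assembled gene with different hits may join related genes, and which of the 39 do so was not tested. The summed count of the 146 genes was higher in brain for 66 (45.2%) and in liver for 54 (37.0%), beside 34.9% and 32.9% of all 5632 genes in the fit, and 26 did not pass the tissue test.

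TRINITY_DN2594_c0_g1 had the smallest p, with 6 transcripts and 3 different first hits (edgeR adjusted p = 4.3064e-10). Its transcript i5, whose hit is the human entry HOMSA_NP_001091679.1, made up 40.9, 43.2 and 44.1% of the gene's count in salt brains and 52.5, 46.3 and 58.4% in reference brains, against 20.7, 19.0 and 20.3% in salt livers and 16.3, 18.53 and 24.5% in reference livers. Transcript i18, with the hit DANRE_ENSDARP00000076517, made up 4.40 ± 1.01% in brain and 60.3 ± 5.599% in liver (SD, n = 6 each). The ranges, 3.05 to 5.26% in brain and 51.7 to 68.3% in liver, were far apart. Summed over its transcripts this gene did not pass the tissue test (log2 difference 0.29; edgeR adjusted p = 0.143).

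The second gene, TRINITY_DN498_c0_g1, had 4 transcripts with 4 different first hits (edgeR adjusted p = 6.0401e-08). Transcript i9, with the hit DANRE_ENSDARP00000016261, made up 89.7 ± 7.55% of the gene's count in brain and 0.178 ± 0.115% in liver. In liver i18, with the hit DANRE_ENSDARP00000016453, made up 95.7 ± 1.63%, against 4.44 ± 2.81% in brain. Its summed count was lower in brain by a log2 difference of -2.86 (edgeR adjusted p = 2.7727e-05).

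**Figure D4:**
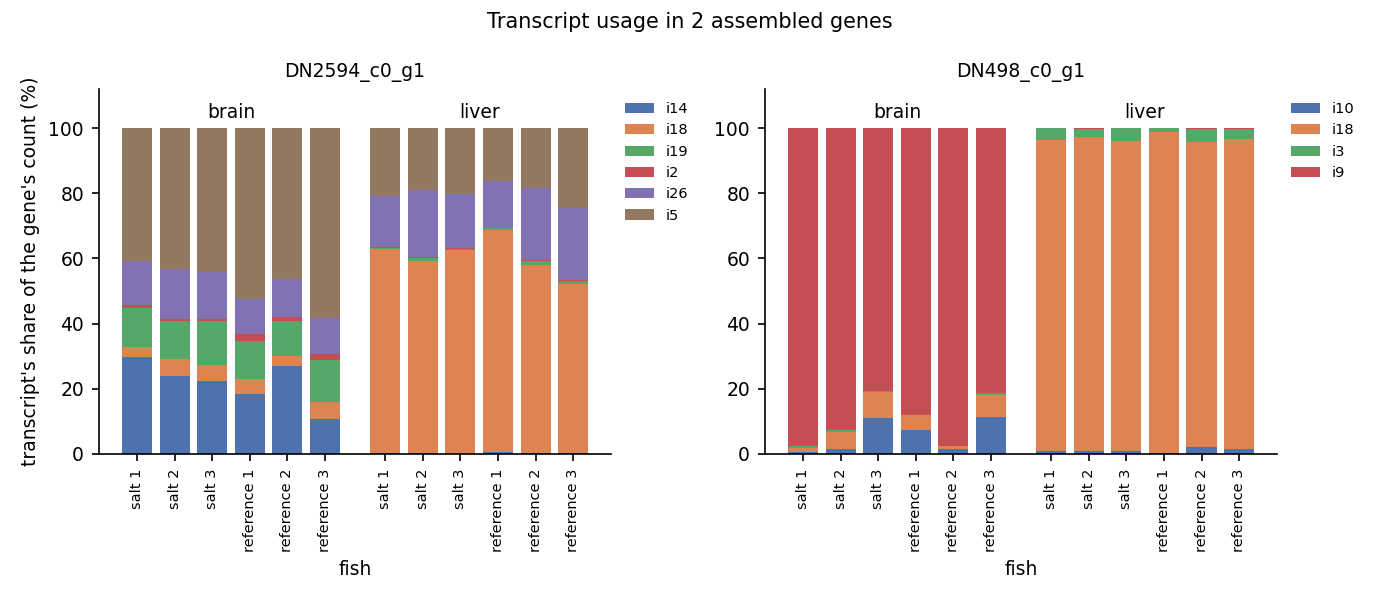
Transcript shares (%) of the summed gene count, as stacked bars for 6 brains (left) and 6 livers (right) of the same fish, in TRINITY_DN2594_c0_g1 and TRINITY_DN498_c0_g1; colours are set for each gene. In each gene the transcript that leads in every brain is not the one that leads in every liver.

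Transcripts with a mitochondrial entry as first hit took a larger share of counts in brain than in liver. Reference fish 2 had a pattern of its own in both tissues. Mitochondria hold their own small genome, whose transcripts encode subunits of the respiratory chain. The mitochondrial entries took 0.684, 0.571 and 0.541% of counts in salt brains and 0.614, 2.38 and 0.510% in reference brains, against 0.0854, 0.0835 and 0.0938% in salt livers and 0.135, 0.796 and 0.124% in reference livers. Each fish was higher in brain, although reference fish 2 was far above the others in both tissues (exact paired sign-flip test, p = 0.03125; adjusted p = 0.03125).

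COX1, a subunit of cytochrome c oxidase, was the first hit of 1 assembled transcript. That transcript had 551866 counts in the brain and 246156 in the liver of reference fish 2. In the other 5 fish it had 3248 to 4680 counts in brain and 601 to 1652 in liver. The entry XENTRmt_YP_203382.1 did the opposite, with 11 counts in brain and 1 in liver of reference fish 2, against 117340 to 192642 in the other brains and 17896 to 37050 in the other livers. XENTRmt_YP_203380.1 had 25554 counts in brain and 16849 in liver of that fish and at most 118 in any other brain and 48 in any other liver. The same fish was thus the exception in brain and in liver for these 3 entries. It was no exception for the remaining entry, XENTRmt_YP_203372.1, with 115 counts in brain and 22 in liver. The other fish had 25 to 187 counts of that entry in brain and 11 to 79 in liver. COX1, XENTRmt_YP_203380.1 and XENTRmt_YP_203372.1 were 1 transcript each, and XENTRmt_YP_203382.1 was 5. These counts are not levels of whole genes. Whether reads of the same genes fell on other transcripts in some fish was not tested.

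Per total of the deposited table, the level of the COX1 transcript was 2.35 to 7.20 times as high in brain as in liver of the same fish. On the TMM scale its log2 difference was 0.22 (SE 0.27; edgeR adjusted p = 0.488), and with the unscaled totals of the counts in the fit, which leave out the features of 1 table only, it was 1.39 and passed (edgeR adjusted p = 0.00224), so the call for COX1 depends on the scaling. XENTRmt_YP_203382.1 was higher in brain in 6 of 6 fish, by a log2 difference of 0.91 on the TMM scale (SE 0.28; edgeR adjusted p = 0.0223). Reference fish 2, with 11 counts in brain and 1 in liver, had the largest difference of a single fish. It was 1.73, against 0.52 to 1.22 in the other fish. Without reference fish 2 the log2 difference was 0.78 and the call was kept (edgeR adjusted p = 0.0269). The call was lost without salt fish 1 (log2 0.93; adjusted p = 0.0517) or without reference fish 3 (0.84; adjusted p = 0.0637) in edgeR.

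**Figure D5:**
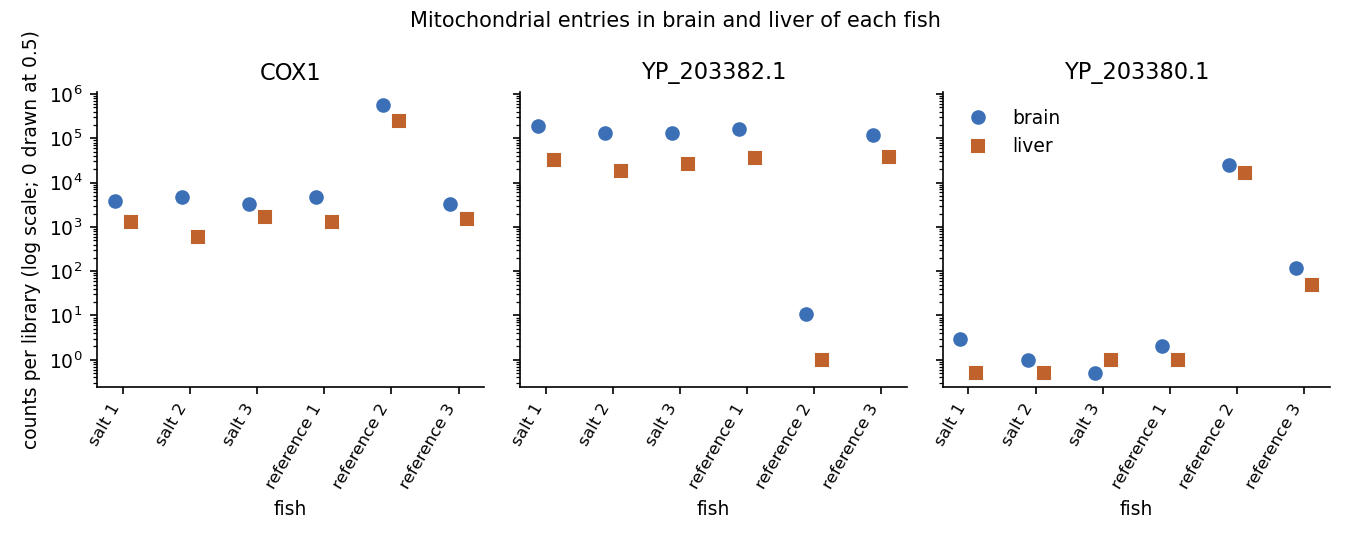
Counts per library (log axis; a count of 0 is drawn at 0.5) of 3 mitochondrial entries in brain (blue circles) and liver (orange squares) of each of the 6 fish. Reference fish 2 is high for COX1 and XENTRmt_YP_203380.1 and low for XENTRmt_YP_203382.1 in both tissues.

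Livers differed more between fish than brains did. Among 5144 genes with a mean of at least 200 counts in each tissue, the median SD of the log2 level over 6 fish was 0.20 in brain and 0.42 in liver, and 4370 of the genes (84.95%) had the larger SD in liver. The median absolute deviation of a library from its tissue's median was 0.113 ± 0.0162 in brain and 0.238 ± 0.0624 in liver on the log2 scale (SD, n = 6 each; exact paired sign-flip test, p = 0.03125). It was lower in brain in 6 of 6 fish, and the largest brain value, 0.144, lay below the smallest liver value, 0.179. Reference livers 2 and 3, nearly without DANRE_ENSDARP00000050237, had 0.310 and 0.322, against 0.179 to 0.224 in the other livers. The liver SDs over 6 fish include this split. Each deviation was taken from the median of the same 6 libraries. The 6 values of a tissue are therefore not independent, and the p does not allow for this. Across 12335 genes, which are not independent replicates, log2 levels of 2 brains had a Pearson r of 0.861 to 0.890, those of 2 livers 0.722 to 0.824, and those of brain and liver of the same fish 0.471 to 0.525.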

How the data were processed

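Whole-number counts per assembled transcript were deposited in a separate table for each tissue, and no per-sample column was left out of the 2 tables used (0 columns). The transcriptome was assembled de novo per the series description; Trimmomatic and DESeq2 are named without versions in the submitters' processing notes. Aligner, counter and assembly settings: not given in the sources used here. In each table all transcripts reached 1 CPM in 2 or more of 6 libraries, as checked on the deposited counts, so totals are those of filtered tables.

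Counts were summed per assembled gene and per first listed hit, with an absent transcript at 0, and features with a transcript in both tables were fitted with edgeR 4.0.16 in R 4.3.3 (filterByExpr, TMM, quasi-likelihood F test, glmTreat for 2-fold, diffSpliceDGE for usage; two-sided, Benjamini-Hochberg, threshold 0.05). Fish was a block, since brain and liver came from the same fish; within stations, the deviations of brain and liver of the same fish had r of 0.343 to 0.43 across genes and 0.708 to 0.788 across transcript shares, against -0.309 to 0.0946 and -0.462 to 0.0613 for different fish. CPM of hits and genes use the counts in the fit scaled by TMM; shares use the table total. The SE is the log2 difference divided by the square root of F. Alternatives used DESeq2 1.42.0 and limma 3.58.1. Reads carry no molecular identifiers, so precision from depth covers counting error only.

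Named hits are the 2 most abundant in each direction among those with an adjusted p under 0.05 and the same sign in 6 of 6 fish, the 2 genes with the smallest p in transcript usage, and mitochondrial entries. The libraries, lists and tests were chosen with earlier results of these data known. Gill libraries were not used here.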

Additional observations from a re-analysis of the deposited data

Results flagged for a closer look

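In 51 groups of 6 values, 13 single values lay far from the other 5 by Dixon's criterion. For separate groups, chance gives about 1 in 20. The groups here overlap, so the 13 values are not independent and their number cannot be set against that rate. In brain reference 2, COX1 alone held 2.27% of counts, which enter the shares of mitochondrial entries and of the most abundant genes. Brain reference 2 was far from the other brains for 4 shares and for COX1, with 13.4% of counts in the 10 most abundant genes (other brains 6.77 to 8.81%), 25.8% in the 100 most abundant genes (18.8 to 20.9%), 2.38% in mitochondrial entries (0.51 to 0.684%), 73.8% with the signal peptide tag (77.6 to 79.0%) and a COX1 level of 26480 CPM (138 to 213 CPM). The same library was low for XENTRmt_YP_203382.1, at 0.528 CPM against 5080 to 6960 CPM in the other brains. The COX1 level is that of 1 assembled transcript.

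The liver of the same fish stood apart for mitochondrial entries, at 0.796% of counts (other livers 0.0835 to 0.135%), and for COX1, at 18730 CPM (87.0 to 242 CPM). It was also high for DANRE_ENSDARP00000112199, at 321000 CPM against 11700 to 127000 CPM in the other livers.

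Brain salt 2 stood apart for the 2 named hits higher in liver, with 25.3 CPM of DANRE_ENSDARP00000112199 (other brains 0.611 to 9.1 CPM) and 19.1 CPM of DANRE_ENSDARP00000124424 (0.0722 to 3.71 CPM). For DANRE_ENSDARP00000124424 its fish also had the smallest brain minus liver difference, a log2 of -10.2 against -18.3 to -15.3 in the other fish. Brain reference 3 deviated most from the median brain, by 0.144 on the log2 scale against 0.101 to 0.115 in the other brains.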

How the results depend on the processing

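Of 578 values recomputed under alternative settings, 422 kept their direction and their call or, for counts and values with no test, stayed within 1.5 times or 1 SD. Another 49 were counts or values with no test that moved beyond these limits, up or down, without turning round. Of the rest, 85 lost and 2 gained a call, and 20 turned round. Of the 85, 78 are shares with 1 fish left out, where 5 pairs cannot give an exact p below 0.0625. For the other changes the cause was not tested, apart from settings that change the number of fish or features. The 4 abundant named hits, which were picked among hits called in the main fit, kept their call in 72 of 72. With unscaled totals of the counts in the fit, 7391 genes were called higher in brain and 1708 in liver (beyond 2-fold 5169 and 1028), and 5928 and 1328 hits (4226 and 836). Counting features of either table with absent transcripts as 0 gave 15171 genes and 6948 hits higher in brain, and at 1 CPM it gave 9579 genes higher in brain and 6036 in liver, and 5179 and 4486 hits. Reference fish alone, with the filter and scaling redone, gave 2399 genes higher in brain and 2282 in liver, and 1883 and 1835 hits. Shared transcripts alone gave 3696 genes higher in brain and 3492 in liver, and 2966 and 2799 hits. Leaving out 1 fish in turn gave 3751 to 3940 genes higher in brain and 3358 to 3533 in liver, and 2976 to 3133 and 2664 to 2841 hits; the station term gave 0 calls each time, with 533 to 1174 genes and 395 to 865 hits at an unadjusted p under 0.05, lowest without salt fish 3. For the station term, DESeq2 called 147 genes and 127 hits. Without the fish as a replicate block the station term called 15 genes and 12 hits, transcript usage 20 genes (20 of them among the 146), and XENTRmt_YP_203382.1 had a log2 difference of 0.76 (edgeR adjusted p = 0.664); the blocked fit changed no call of the 4 abundant named hits. Usage with at least 10 counts in all 12 libraries called 404 of 1826 genes (93 of the 146), and without 1 fish 99 to 116. XENTRmt_YP_203382.1 also lost its edgeR call with absent transcripts at 1 CPM (log2 0.59; adjusted p = 0.401) and in salt (0.72; 0.0871) or reference fish alone (1.14; 0.132). COX1 turned round in salt fish alone (-0.046; edgeR adjusted p = 0.914), and with unscaled totals XENTRmt_YP_203372.1 passed (1.64; 0.00735). Without 1 fish the shares differed, brain minus liver, by -46.2 to -38.7 points (10 most abundant genes), -53.9 to -48.9 (100 most abundant), 13.3 to 14.2 (no hit), -23.5 to -21.3 (0 segments), 2.81 to 3.68 (1), 2.18 to 2.54 (2 to 3), 0.846 to 0.943 (4), 0.694 to 0.763 (5 to 6), 0.542 to 0.572 (7), 0.585 to 0.646 (8 to 11), 0.234 to 0.299 (12 or more), 0.480 to 0.719 (mitochondrial entries) and -14.7 to -13.8 (signal peptide tag). For shares, 12 or more segments lost its call without the top liver hit (0.174 points, exact adjusted p = 0.0625), and on shared transcripts 1 segment gave -0.657 and 12 or more -0.112 points. Class medians relative to all genes turned round with absent transcripts at 1 CPM: -0.28 (no hit), 0.31 (0 segments), 0.51 (1), 0.53 (2 to 3), 0.66 (4), 0.46 (5 to 6), 0.41 (7), 0.45 (8 to 11) and 0.67 (12 or more). With absent transcripts as 0 the 7-segment median was 5.02, and the medians of both settings rest on the level filled in. For 0 segments limma-voom gave 0.0026 and shared transcripts 0.0037, and for 4 segments DESeq2 gave 0.025, limma-voom 0.040, no replicate block 0.015 and leaving out 1 fish -0.10 to 0.070. The depth of each table is that left by its filter, which limits what can be said of features listed in 1 tissue.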
